A study of Homo sapiens with 2 samples.

Results

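The integrin genes followed here were those for the subunits of the collagen- and laminin-binding receptors: ITGA1, ITGA2, ITGA10 and ITGA11, ITGA3, ITGA6 and ITGA7, and ITGB1 and ITGB4. They were 9 of 20163 protein-coding genes of GENCODE release 44 on GRCh37 (hg19). A peak belonged to a gene when it lay in the gene body or no more than 3 kb from the start of transcription (TSS), a stretch here called the locus. By that rule the 9 loci held 61 of the 114506 peaks of the DMSO library and 95 of the 161684 peaks of the MAK683 library. The rule that assigned peaks used no measured height, but the family itself was picked with earlier results of these data known.

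Chromatin accessibility was profiled by ATAC-seq, in which the transposase Tn5 inserts adapters into open DNA. The cells were G401, an established line from a malignant rhabdoid tumour of the kidney, a tumour type that has lost SMARCB1. One culture was kept in DMSO for 3 days, and the other was given MAK683 for the same 3 days, at 3 μM per the series description. MAK683 is a small molecule that binds EED and inhibits the histone H3 lysine 27 methyltransferase complex PRC2. There was 1 library per group and 1 cell line, so the differences below were not checked against replicates and carry no p-values. The intervals given are 95% intervals for counting error alone, except those of medians, which reflect the spread among genes or regions. Culture-to-culture variation cannot be told apart from the treatment.

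Integrins are surface receptors built from 1 alpha and 1 beta subunit that tie the extracellular matrix to the actin or keratin cytoskeleton. The alpha subunits of ITGA1, ITGA2, ITGA10 and ITGA11 bind collagens, those of ITGA3, ITGA6 and ITGA7 bind laminins, and all of them pair with the beta subunit of ITGB1. The product of ITGB4 pairs with that of ITGA6 in hemidesmosomes, the junctions by which epithelia hold on to the basement membrane.

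The stretches of 150 bp printed next surround the peak summits on which the results turn. They were read from GRCh37 and are written 5′ to 3′ on the strand of the gene. Capitals mark the letters of 1 of 5 motifs searched on both strands. The motifs were TGANTCA for AP-1 factors, GGAATG for TEAD factors, TGTGGT for RUNX factors, AGATAA for the GATA family, and GGGCGG for SP1 or KLF factors, and none of them contains another. The first pair shows where the summit of the ITGA2 promoter peak lay in each library, the third is the ITGA11 promoter with a peak in MAK683 alone, and the next pair are the tallest peaks found in a single library. The last is an upstream ITGB1 peak that was almost equal in both libraries. It was not selected by the naming rules given below, so its letters are an example only.
ITGA2 promoter, DMSO summit, chr5:52284835-52284984, plus strand: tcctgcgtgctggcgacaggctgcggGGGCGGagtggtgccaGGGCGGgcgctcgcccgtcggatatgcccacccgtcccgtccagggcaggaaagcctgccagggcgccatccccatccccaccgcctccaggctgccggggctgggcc
ITGA2 promoter, MAK683 summit, chr5:52285411-52285560, plus strand: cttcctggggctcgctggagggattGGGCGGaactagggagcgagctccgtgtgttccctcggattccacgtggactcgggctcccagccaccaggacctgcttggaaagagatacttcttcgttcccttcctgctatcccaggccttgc
ITGA11 promoter, MAK683 summit, chr15:68724553-68724702, minus strand: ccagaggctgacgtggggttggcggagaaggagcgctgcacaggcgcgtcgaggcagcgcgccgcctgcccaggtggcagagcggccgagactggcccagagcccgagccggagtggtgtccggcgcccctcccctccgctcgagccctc
ITGA1 intron 6, MAK683 summit, chr5:52163346-52163495, plus strand: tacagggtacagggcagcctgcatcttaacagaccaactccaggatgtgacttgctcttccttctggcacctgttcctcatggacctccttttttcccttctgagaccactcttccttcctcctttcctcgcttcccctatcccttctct
ITGB1 intron 1, DMSO summit, chr10:33240194-33240343, minus strand: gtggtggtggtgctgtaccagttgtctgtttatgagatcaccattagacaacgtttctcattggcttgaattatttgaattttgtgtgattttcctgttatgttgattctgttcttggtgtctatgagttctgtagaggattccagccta
ITGB1 upstream, MAK683 summit, chr10:33272337-33272486, minus strand: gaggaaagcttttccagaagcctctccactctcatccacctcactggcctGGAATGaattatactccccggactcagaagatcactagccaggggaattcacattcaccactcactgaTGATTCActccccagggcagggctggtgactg

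Both ITGA2 stretches held the SP1 or KLF letters, which were in 12.2% of such 150 bp windows over all DMSO peaks and 9.27% over all MAK683 peaks. The ITGB1 upstream stretch held the TEAD letters, present in 9.55% of all MAK683 windows, and the AP-1 letters, present in 4.39%. None of the 5 motifs was found in the ITGA11, ITGA1 and ITGB1 intron 1 stretches. Shares of all windows for RUNX were 10.2% in both libraries, and those for GATA were 4.88% in DMSO and 5.27% in MAK683. GC content was 76% and 61.3% for the ITGA2 stretches and 75.3% for ITGA11, against 39.3% for ITGB1 intron 1. A match is a description of the letters and not of a bound factor.

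Peak height was the tag pileup at the summit divided by the tags after filtering and multiplied by 1000000 (RPM). The DMSO library had 16598348 such tags and the MAK683 library 18265284, so 1 tag was worth 0.0602 and 0.0547 RPM. The lowest called peak had 6 tags in either library, and a promoter without a peak was set to 0.361 RPM, the height of 6 tags in DMSO, where the other library had one. A missing peak therefore means a height under the calling limit and not closed chromatin. In bulk cells, a share of cells that are open and the degree of opening per cell cannot be told apart. The cell line label was looked at through SMARCB1, whose locus had 0 peaks in both libraries. The 200 kb on each side had only 2 in each, of at most 11 tags in DMSO and 14 in MAK683. With neighbours this sparse, the absence of peaks cannot settle the label. Promoter peaks were present in both libraries at all 4 epithelial markers (EPCAM, CDH1, KRT8, KRT18) and all 3 mesenchymal ones (VIM, CDH2, FN1). Of the hematopoietic markers reported, PTPRC and CD3E had none and SPI1 had a peak of 0.602 RPM in each library, and the endothelial CDH5 and KDR had 0.602 RPM in MAK683 alone; PECAM1 was not analysed here. EPCAM, CDH1, KRT8 and KRT18 went from 0.723, 1.08, 1.99 and 1.75 RPM in DMSO to 0.602, 0.931, 1.64 and 1.26 RPM in MAK683, and VIM from 2.65 to 2.24 RPM. CDH2 went the other way, from 0.602 to 1.15 RPM, as did FN1, from 0.723 to 1.42 RPM. The part of these markers or of any other cell type in the values of the members was not tested.

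Most of the 9 promoters had a peak in both libraries, and among those 7 ITGA2 had the largest change. ITGA11 had no DMSO peak, so its ratio was read against the floor, and with summed heights it stood at 2.49 against 2.08 for ITGA2 on the log2 scale. A promoter peak was found for 8 of 9 members in DMSO, against 72.7% of all protein-coding genes, and for 8 of 9 in MAK683, against 78.7%. ITGA10 was the 1 member with a promoter peak in DMSO alone, which held for 1.84% of genes, and ITGA11 the 1 with a peak in MAK683 alone, which held for 7.87%. The ITGA2 promoter was 3.23 times as high in MAK683, and it was the 1 member of 9 whose height at least doubled, against 3.37% of the 16244 genes with a promoter peak. No member was at least halved, against 5.76% of genes.

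Over the 9 promoters the log2 ratio, MAK683 over DMSO, had a median of -0.14, with an order-statistic interval of -0.58 to 0.98. Over all 16244 promoters the median was -0.42. ITGA1, ITGA2, ITGA11 and ITGB4 were higher in MAK683 and the other 5 members lower, which makes 44.4% higher against 21.5% of all promoters. When every ratio was centred on the median of all regions shared by both libraries, -0.33, the split became 6 higher and 3 lower, with ITGA7 and ITGB1 changing side, and ITGA11 joined ITGA2 as at least doubled, at 1.31. By construction about as many of all shared regions lie above that median as below it. No share of all promoters higher or doubled on the centred scale is given here to set beside these counts. The median of all promoters, -0.42, lies below that centre, so the centred counts are not read as a result about the members. When peaks were required to have a −log10 q of at least 10, the DMSO peak of ITGA2 was no longer counted. The ITGA2 ratio, then read against the higher floor of that setting, was 0.96 and fell short of a doubling.

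**Figure D1:**
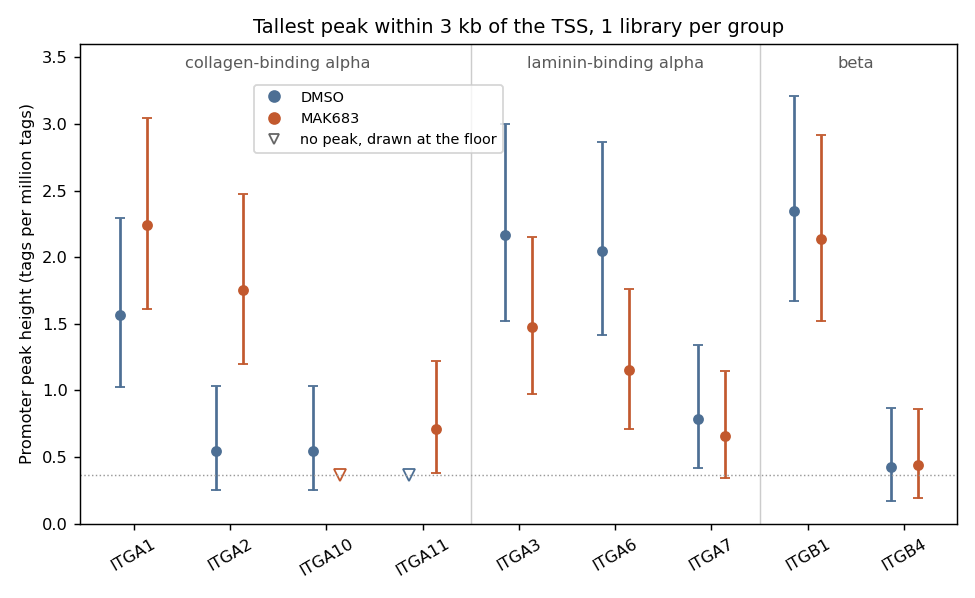
Height of the tallest peak within 3 kb of the TSS (RPM) for each member in the DMSO (blue) and MAK683 (orange) library, with 95% exact counting intervals; open triangles mark a promoter without a peak, drawn at the floor of 0.361 RPM. The intervals of the 2 libraries are apart for ITGA2 alone, at 0.542 and 1.75 RPM.

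Among the collagen-binding alpha genes, ITGA2 encodes the alpha-2 subunit of the collagen receptor of platelets and epithelia (ENSG00000164171, chromosome 5, 52285170 to 52390609, plus strand). Its promoter peak had 9 tags in DMSO, or 0.542 RPM (interval 0.248 to 1.03). In MAK683 it had 32 tags, or 1.75 RPM (interval 1.20 to 2.47). The intervals did not overlap, and the log2 ratio was 1.69 (0.63 to 2.76), which lay at percentile 99.6 of all promoters.

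The ITGA2 peak was also wider in MAK683. It ran from 52284846 to 52285899 in DMSO, which is 1054 bp with the summit at -272 bp, upstream of the TSS. In MAK683 it ran from 52284282 to 52286660, which is 2379 bp with the summit at 304 bp, in intron 1. A second MAK683 peak of 10 tags lay at -2.64 kb, and the peaks in the window covered 2628 bp in all. Covered length at least doubled for ITGA2 alone of the 7 members with a promoter peak in both libraries, against 7.01% of 14287 genes. The TSS of the antisense gene ITGA2-AS1 lies 508 bp from the MAK683 summit, and the accessibility of both starts cannot be told apart. The −log10 q of the DMSO peak was 4.22, close to the calling limit, and that of the MAK683 peak was 29.6.

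The 3 other protein-coding genes whose pair of promoter heights was nearest to that of ITGA2, by Euclidean distance over the log2 heights of the 2 libraries, were PAMR1, THSD7A and CCN3. PAMR1 went from 0.542 to 1.86 RPM at a distance of 0.087, THSD7A from 0.542 to 1.64 RPM at 0.093, and CCN3 from 0.542 to 1.59 RPM at 0.14. With 2 libraries, likeness here means only similar heights in each.

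ITGA1, which encodes the alpha-1 subunit of a receptor for collagen IV (ENSG00000213949, chromosome 5, 52083750 to 52255039, plus strand), lies upstream of ITGA2 on the same strand. Its promoter peak had 26 tags in DMSO, or 1.57 RPM (1.02 to 2.30). In MAK683 it had 41 tags, or 2.24 RPM (1.61 to 3.05). The log2 ratio was 0.52 (-0.19 to 1.23), an interval that included 0. The TSS is shared to the base with PELO, a ribosome rescue factor, so the 2 genes cannot be told apart here. The tallest other ITGA1 peak lay in intron 1 at 12.1 kb, next to the start of PELO-AS1, and had 47 tags in DMSO and 42 in MAK683 (log2 ratio -0.30, -0.90 to 0.30).

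ITGA10, which encodes a collagen receptor subunit known from cartilage (ENSG00000143127, chromosome 1, 145524969 to 145543868, plus strand), had no peak at the start itself. Its single promoter peak was a DMSO peak of 9 tags, or 0.542 RPM (0.248 to 1.03), at 2.83 kb in intron 2. No MAK683 peak lay in that window, and the DMSO height was 1.5 times the floor. The tallest peak of the locus lay instead near the 3′ end, in exon 30 at 17.9 kb, with 25 tags in DMSO and 26 in MAK683 (log2 ratio -0.08, -0.87 to 0.71).

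ITGA11, which encodes a receptor subunit for fibrillar collagens known from fibroblasts (ENSG00000137809, chromosome 15, 68588870 to 68724502, minus strand), showed the opposite arrangement to ITGA10. No DMSO peak lay within 3 kb of its TSS, and MAK683 had 4 there. The tallest had 13 tags, or 0.712 RPM (0.379 to 1.22), at -126 bp, and was 1.97 times the floor. The other 3 promoter peaks had 7 to 10 tags. At the far end of the gene the picture was different, since intron 28 held a pair of peaks in both libraries. The peak at 126 kb had 30 tags in DMSO and 21 in MAK683 (log2 ratio -0.65, -1.46 to 0.15), and that at 127 kb had 20 and 21 tags (log2 ratio -0.07, -0.95 to 0.82).

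The laminin-binding alpha genes were lower in MAK683, 1 of them with an interval that left out 0, and ITGA7 was higher after centring. ITGA6 encodes the alpha-6 subunit, the partner of both beta subunits studied (ENSG00000091409, chromosome 2, 173292082 to 173371187, plus strand). Its promoter peak, with the summit in the untranslated part of exon 1, had 34 tags in DMSO, or 2.05 RPM (1.42 to 2.86). In MAK683 it had 21 tags, or 1.15 RPM (0.712 to 1.76). The log2 ratio was -0.83 (-1.62 to -0.05), at percentile 12.5 of all promoters, so ITGA6 was the 1 lower member whose interval left out 0. After centring it was -0.50 (-1.29 to 0.28), while ITGA2 was 2.02 (0.96 to 3.09). The peak was of almost the same width in the libraries, 3075 bp and 3064 bp. The intron 1 peak at 34.6 kb did not share the lower height, with 21 tags in DMSO and 23 in MAK683, or 1.27 and 1.26 RPM (log2 ratio -0.01, -0.86 to 0.85).

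ITGA3 encodes the alpha-3 subunit, a laminin receptor of kidney and skin epithelia (ENSG00000005884, chromosome 17, 48133332 to 48167845, plus strand). Its promoter peak had 36 tags in DMSO, or 2.17 RPM (1.52 to 3.00). In MAK683 it had 27 tags, or 1.48 RPM (0.974 to 2.15), with a log2 ratio of -0.55 (-1.27 to 0.17). Its other peak, in intron 23 at 31.5 kb, was the 1 shared region of the 9 loci that was at least halved, from 21 tags to 11 (1.27 to 0.602 RPM, log2 ratio -1.07, -2.12 to -0.02). That region was 1 peak of 740 bp in DMSO and a pair of peaks of 290 and 233 bp in MAK683.

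ITGA7 encodes the alpha-7 subunit, the laminin receptor of skeletal and cardiac muscle (ENSG00000135424, chromosome 12, 56078352 to 56110188, minus strand). Its promoter held low peaks in both libraries, 4 in DMSO and 2 in MAK683. The tallest had 13 tags in DMSO, or 0.783 RPM (0.417 to 1.34), at -13 bp. The tallest in MAK683 was another peak, of 12 tags or 0.657 RPM (0.339 to 1.15), at 510 bp in intron 1. The log2 ratio was -0.25 (-1.39 to 0.88). The tallest peak of the locus, at -8.53 kb, lay 391 bp from the start of BLOC1S1, a subunit of a lysosome biogenesis complex, and had 42 tags in DMSO and 28 in MAK683 (log2 ratio -0.72, -1.41 to -0.03). That value cannot be told apart from the promoter of BLOC1S1.

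ITGB1, the beta-1 gene (ENSG00000150093, chromosome 10, 33176201 to 33294720, minus strand), had the tallest promoter of the 9 in DMSO and the second tallest in MAK683. Its promoter peak had 39 tags in either library. That was 2.35 RPM (1.67 to 3.21) in DMSO and 2.14 RPM (1.52 to 2.92) in MAK683, with a log2 ratio of -0.14 (-0.78 to 0.50), or 0.19 after centring. The promoter peaks covered 6813 bp in DMSO and 3201 bp in MAK683. The DMSO length counts in full a peak of 3174 bp that only reaches into the window, with its summit at 4.61 kb. A MAK683 peak of 1434 bp in the same region, with its summit at 4.63 kb, ended outside the window and is not counted. The 2 lengths therefore do not compare like with like. The divergent noncoding gene ITGB1-DT starts 447 bp from the DMSO summit.

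ITGB4, the beta-4 gene (ENSG00000132470, chromosome 17, 73717408 to 73753899, plus strand), had no peak at its start. Its promoter peak lay in intron 1 and had 7 tags in DMSO, or 0.422 RPM (0.170 to 0.869), at 1.91 kb. In MAK683 it had 8 tags, or 0.438 RPM (0.189 to 0.863), at 1.77 kb, and the log2 ratio was 0.05 (-1.41 to 1.52). The tallest other peaks lay in the last part of the gene. That of DMSO was at 26.5 kb, in a region with 13 tags in DMSO and 9 in MAK683 (log2 ratio -0.67, -1.89 to 0.56). That of MAK683 was at 28.6 kb, in a region with 12 tags in DMSO and 21 in MAK683 (log2 ratio 0.67, -0.35 to 1.69).

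In DMSO the promoter heights ran, from high to low, ITGB1, ITGA3, ITGA6, ITGA1, ITGA7, ITGA2 and ITGA10 at the same height, and ITGB4. In MAK683 the order was ITGA1, ITGB1, ITGA2, ITGA3, ITGA6, ITGA11, ITGA7 and ITGB4. ITGA2 moved from among the lowest to the third place. The counting intervals of each pair of neighbours in either order overlapped, so the order of neighbours is not resolved at this depth.

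The number of peaks was higher in MAK683 in some of the 9 loci and not in others, and ITGA1 and ITGA2 gave almost the whole difference. The ITGA1 locus had 5 peaks in DMSO and 22 in MAK683, or 2.87 and 12.6 per 100 kb. The ITGA2 locus had 2 and 15, or 1.84 and 13.8 per 100 kb. Together these neighbours went from 7 to 37 peaks, a ratio of 5.29, while the other 7 loci went from 54 to 58, a ratio of 1.07. Over all main chromosomes the MAK683 library had 1.41 times as many peaks.

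ITGA6 went from 3 to 7 peaks, ITGA3 from 2 to 3, ITGA7 from 5 to 7 and ITGA11 from 7 to 9. ITGA10 had 2 and ITGB4 had 7 in each library, and ITGB1 went from 28 to 23. These were small numbers, and of the 9 loci 8 had at least 5 peaks over both libraries. Of those 8, the 3 loci ITGA1, ITGA2 and ITGA6 had at least 2 times as many peaks in MAK683, against 21.4% of 11953 such loci. None had at least 2 times as many in DMSO, against 19.5%.

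Long loci more often had such a difference, and they were also read on their own. The same 3 were among 5 member loci of at least 50 kb, where the background was 31.4% of 5630. ITGA1 and ITGA2 were the 2 of 5 with at least 4 times as many peaks, against 24.1%. Differences of that size were therefore common among long loci.

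**Figure D2:**
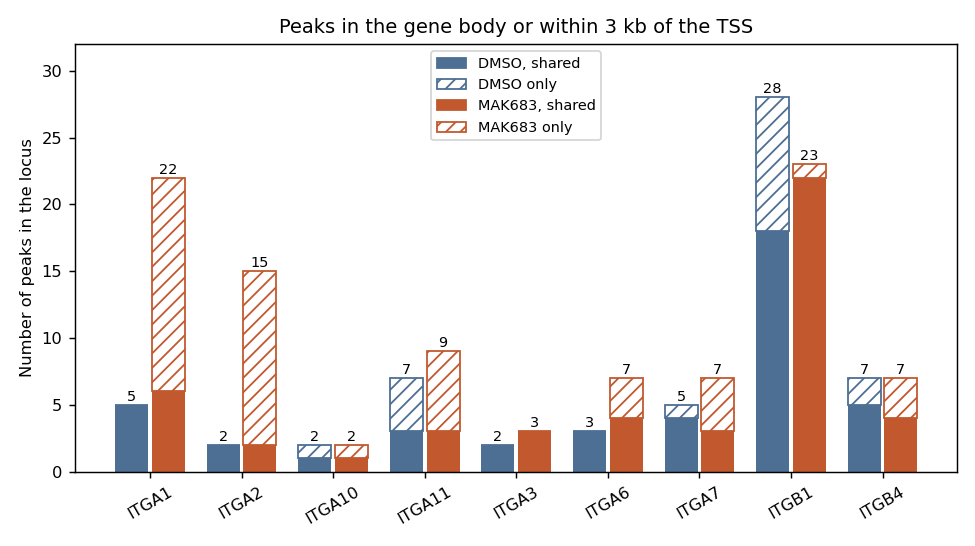
Number of peaks in the locus of each member in the DMSO (blue) and MAK683 (orange) library; filled bars are peaks that overlap a peak of the other library and hatched bars are peaks of 1 library alone. ITGA1 has 5 and 22 peaks, ITGA2 has 2 and 15, and ITGB1 has 28 and 23.

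The peaks that ITGA1 and ITGA2 had in MAK683 alone were low and spread along the introns. Of the 37 MAK683 peaks 29 overlapped no DMSO peak, 16 in ITGA1 and 13 in ITGA2, which is 78.4% against 56.8% of all MAK683 peaks. Those of ITGA1 had 7 to 16 tags with a median of 10, and those of ITGA2 had 7 to 11 tags with a median of 8. The tallest was the ITGA1 intron 6 peak printed above, at 52163254 to 52163499 and 79.7 kb from the TSS, with 16 tags or 0.876 RPM (0.501 to 1.42). All 7 DMSO peaks of the pair overlapped a MAK683 peak.

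The 27.1 kb between the end of ITGA1 and the ITGA2 promoter window held 0 peaks in both libraries. In the 1 Mb on each side of the pair, peaks went from 12 to 32, a ratio of 2.67, and chromosome 5 as a whole had a ratio of 1.72. The flanks of the other members had ratios of 0.671 (ITGA11) to 1.06 (ITGA10). The surroundings of ITGA1 and ITGA2 thus held more peaks in MAK683 as well, and their part in the values of the 2 genes was not tested.

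**Figure D3:**
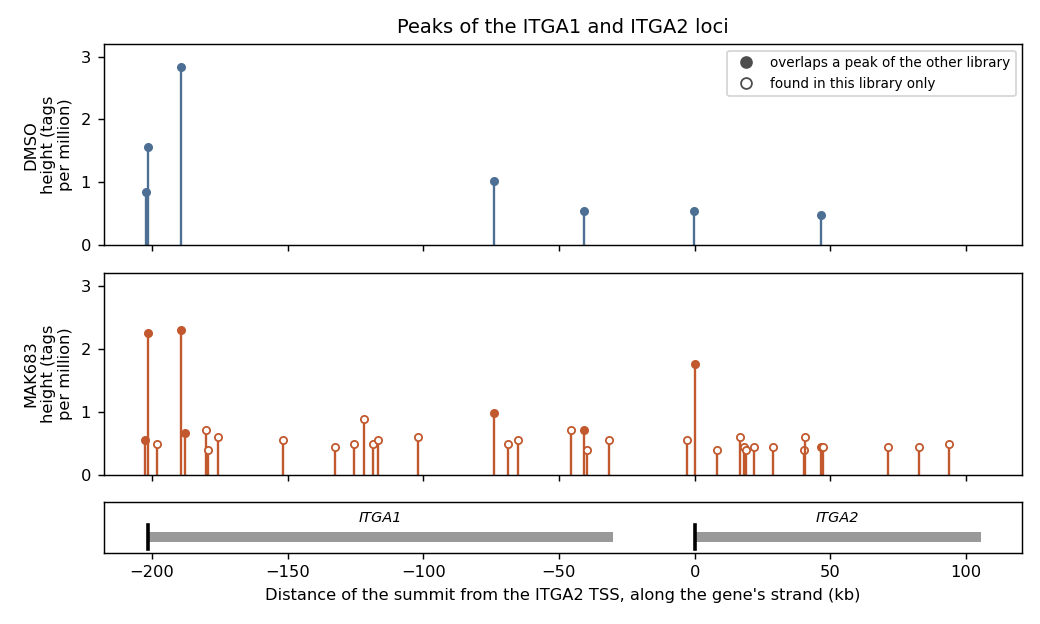
Height (RPM) of each peak of the ITGA1 and ITGA2 loci in DMSO (top) and MAK683 (middle) against the distance of its summit from the ITGA2 TSS in kb; filled points overlap a peak of the other library, open points do not, and grey bars show the gene bodies with a black tick at each TSS. MAK683 has 29 open points at heights up to 0.876 RPM, and DMSO has none.

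ITGB1 was the member richest in peaks, at 23.6 per 100 kb in DMSO and 19.4 in MAK683. Most lay upstream of the TSS, in intron 1 or downstream of the main transcript, since the annotated gene reaches beyond that transcript at both ends. MAK683 had no peak between those at 19.1 and 63.2 kb. In that stretch DMSO had low peaks of 8 or 9 tags at 26.7, 45.5 and 59.7 kb, all found in DMSO alone. The tallest other peak in DMSO was at -47.6 kb, at the far 5′ end of the gene, with 35 tags in DMSO and 25 in MAK683 (log2 ratio -0.62, -1.36 to 0.12). In MAK683 the tallest was at -22.5 kb, with 31 tags in DMSO and 32 in MAK683 (log2 ratio -0.09, -0.80 to 0.62). The AP-1 and TEAD bearing peak at -25.3 kb printed above had 22 and 21 tags (log2 ratio -0.21, -1.07 to 0.66).

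In ITGB1, 10 of the 28 DMSO peaks were found in DMSO alone, or 35.7% against 43.8% of all DMSO peaks. Of the 23 MAK683 peaks 1 was found in MAK683 alone, or 4.35% against 56.8% of all MAK683 peaks. The tallest of the 10 lay in intron 1 at 6.89 kb, from 33239750 to 33241061, with 19 tags or 1.14 RPM (0.689 to 1.79). The MAK683 peak had 10 tags. ITGB1 was the locus with the largest loss of covered length, from 28533 to 17269 bp, while ITGA1 went from 5001 to 11941 bp and ITGA2 from 1347 to 6951 bp.

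**Figure D4:**
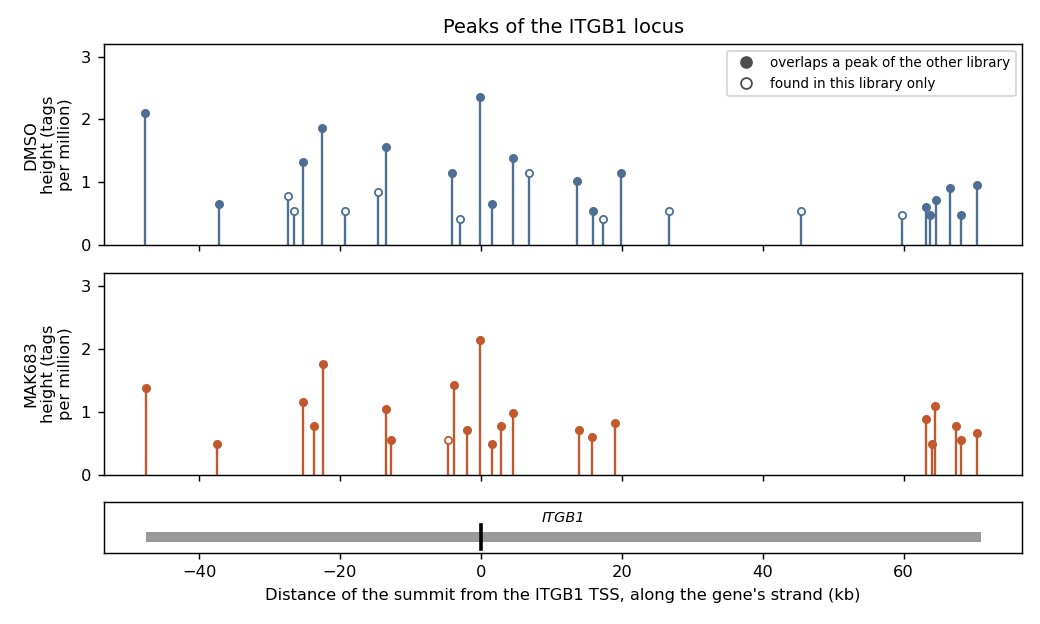
Height (RPM) of each peak of the ITGB1 locus in DMSO (top) and MAK683 (middle) against the distance of its summit from the ITGB1 TSS in kb along the gene; filled points overlap a peak of the other library and open points do not. The promoter and most upstream peaks stand in both libraries, and 10 open points in DMSO face 1 in MAK683.

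Over the 9 loci 43 of the 61 DMSO peaks, or 70.5% (Wilson interval 58.1 to 80.4), overlapped a MAK683 peak, against 56.2% of all DMSO peaks. Of the 95 MAK683 peaks 48, or 50.5% (40.6 to 60.4), overlapped a DMSO peak, against 43.2%. The members' 47 peaks of MAK683 alone had a median of 9 tags. The total length under peaks was 56031 bp in DMSO and 57742 bp in MAK683, so more peaks did not mean much more covered DNA.

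Merging overlapping peaks gave 39 regions of the members that were shared by both libraries. Their median log2 ratio was -0.14 (order-statistic interval -0.43 to 0.05), and that of all 57983 shared regions was -0.33. Of the 39, 13 were higher in MAK683, or 33.3% against 23.8% of all shared regions, and 26 were lower. After centring 24 were higher and 15 lower, on a scale where about as many of all shared regions are higher as lower by construction. No share of all regions past 2-fold is given for the centred scale. The ITGA2 promoter was the 1 region at least doubled, against 0.873% of all, and ITGA3 intron 23 the 1 at least halved, against 5.54%, though no region was at least halved after centring and 2 were at least doubled, the second being the ITGB4 region at 28.6 kb, which stood at the 2-fold limit. The ITGA2 promoter was a shared region because any overlap of at least 1 bp counted. Its DMSO peak of 1054 bp lay inside a MAK683 peak of 2379 bp, with summits at -272 and 304 bp. Under the stricter overlap rules given below, that promoter was not a shared region. The second shared ITGA2 region, in intron 2 at 46.6 kb, had 8 tags in either library. For ITGB1, 12 of 17 shared regions were lower, or 8 of 17 after centring, and for ITGB4 3 of 4 were higher on either scale.

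**Figure D5:**
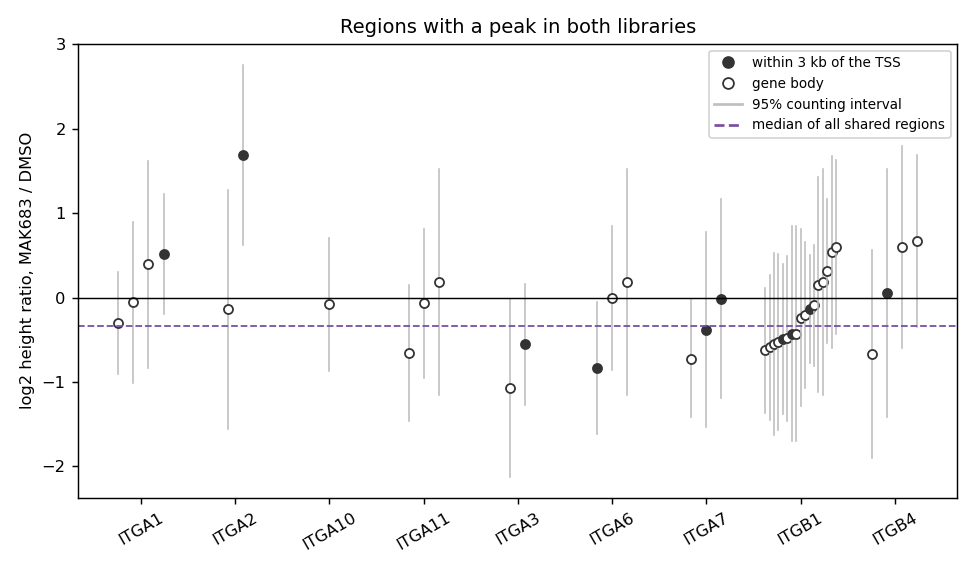
Log2 ratio of height (MAK683 over DMSO) of the 39 shared regions, by member, with 95% counting intervals; filled points lie within 3 kb of the TSS and open points in the rest of the locus, and the dashed line is the median of all shared regions, -0.33. The ITGA2 promoter stands at 1.69, and ITGA3 intron 23 at -1.07 is the lowest.

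Base composition differed between the promoter peaks of the members and the rest. In windows reaching 150 bp to each side of the summit, the 15 promoter peaks of DMSO had a median GC content of 59.8% and the 46 others 51.2%. In MAK683 these were 59.3% for 18 promoter peaks and 47.2% for 77 others. The 33 ITGA1 and ITGA2 peaks outside the promoters in MAK683 had 43.9%, against 50.2% over all MAK683 peaks.

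Motif letters were counted in the same windows. TEAD letters were in 24 of the 95 MAK683 peaks of the members, or 25.3%, against 18.3% of all MAK683 peaks, and in 12 of 61 DMSO peaks, or 19.7%, against 16.6%. In the 47 MAK683 peaks without a DMSO peak they were in 14, or 29.8%, against 19.2% of all MAK683 peaks without a DMSO peak. AP-1 letters were in 8 peaks of each library, which is 13.1% against 8.10% in DMSO and 8.42% against 8.69% in MAK683. RUNX letters were in 13.1% and 14.7% of the members' peaks, against 19.0% and 19.2%. GATA letters were in 8.20% and 10.5%, against 10.8% and 11.6%. SP1 or KLF letters were in 22.95% and 14.7%, against 18.2% and 14.2%.

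The partners and ligands of these receptors were read at their promoters in the same way. Of 17 other integrin genes, 10 had a promoter peak in DMSO and 13 in MAK683, beside 72.7% and 78.7% of all genes. Among all promoters 21.5% were higher, 3.37% at least doubled and 5.76% at least halved. Of the 13 with a value 6 were higher and 7 lower, none passed 2-fold in either direction, and the median log2 ratio was -0.05 beside -0.42 for all promoters. Among the higher ones ITGAE, ITGAX and ITGB6 had no DMSO peak and 9, 8 and 7 tags in MAK683. They were read against the floor, which any MAK683 peak of at least 7 tags exceeds. Promoters with a peak in a single library were read in the same way for the shares of all promoters. The leukocyte genes ITGAL, ITGAM, ITGAD and ITGB2 had no peak in either library. ITGAV, the vitronectin receptor subunit, was the tallest, at 3.31 RPM in DMSO and 2.74 RPM in MAK683.

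Of 11 laminin genes, 7 had a promoter peak in DMSO and 9 in MAK683, with 4 higher and 5 lower and a median log2 ratio of -0.24, beside the shares of all genes given above for peaks (72.7% and 78.7%) and for higher promoters (21.5%). LAMB2, the beta-2 chain of the glomerular and synaptic laminins, had 39 tags in DMSO and 21 in MAK683, or 2.35 and 1.15 RPM (log2 ratio -1.03, -1.80 to -0.27). It was the 1 laminin gene at least halved, against 5.76% of all genes. Another 2 were at least doubled, against 3.37%, and they are named after their values were seen. LAMA2 had no DMSO peak and 18 tags in MAK683, and LAMA4 had 9 and 21 tags (log2 ratio 1.08, -0.04 to 2.21). LAMB3, also higher, had no DMSO peak and 9 tags in MAK683, so LAMA2 and LAMB3 were read against the floor.

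Of 20 genes for adaptors and signalling partners, 19 had a promoter peak in each library, 2 were higher and 18 lower, and the median was -0.53. Among all genes 72.7% had a DMSO and 78.7% a MAK683 promoter peak. Of all promoters 21.5% were higher, 3.37% at least doubled and 5.76% at least halved. PXN, the focal adhesion scaffold paxillin, was at least halved, with 26 tags in DMSO and 12 in MAK683, or 1.57 and 0.657 RPM (log2 ratio -1.25, -2.24 to -0.27). The other 2 past 2-fold had a peak in a single library and were named after their values were seen: PARVB with 12 tags in DMSO and FERMT1 with 19 tags in MAK683. Of 7 other collagen and laminin receptors, 5 had a promoter peak in both libraries and all 5 were lower, none of them halved, with a median of -0.59. After centring the split was 10 higher and 3 lower for the other integrins, 5 and 3 for the laminins with 1 at the median, 6 and 14 for the adaptors and 0 and 5 for the other receptors, and neither LAMB2 nor PXN was at least halved. No share of all promoters on the centred scale is given beside these splits. The median of all promoters, -0.42, lies below the centre of -0.33, so the splits are not read as a result about the lists.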

How the data were processed

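ATAC-seq was available for 1 DMSO and 1 MAK683 library of G401 cells. Per the study's methods the authors trimmed 150 bp paired reads with Trim-galore and used Bowtie2 to align them to hg19. The file headers show that narrow peaks were called per library by MACS 2.1.1.20160309 (q-value cutoff 0.05, tags shifted by -100 bp and extended to 200 bp, no control, no local background, 1 tag kept per position), while their processing notes name MACS2 2.2.7.1 and 2.1.0. The deposited pileup signal is in whole tags with no depth scaling. Fold enrichment, a ratio to background in the deposited tables, was used in 1 alternative only. The deposited −log10 p-value was used to rank the MAK683 peaks kept for equal peak numbers and to break ties between peaks of the same height. The −log10 q-value served for thresholds only. Peak positions are as deposited by the authors.

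Pileup was divided by tags after filtering (16598348 and 18265284) and multiplied by 1000000. The tallest peak overlapping 3 kb around the TSS stood for a promoter. Peaks overlapping by at least 1 bp were shared. Tag numbers were given exact Clopper-Pearson intervals, log2 ratios a Poisson interval, shares a Wilson interval and medians an order-statistic interval. The intervals of tags, ratios and shares cover counting error only. Those of medians reflect the spread among different genes or regions and hold no tag-counting error. None covers variation between cultures, and PCR copies were not told apart by molecular identifiers. Scripts ran in Python 3.11.15 with numpy 2.4.6, pandas 2.3.3 and scipy 1.17.1 and were tested on simulated peaks. Genes and sequence came from GENCODE release 44 on GRCh37.

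The members and related gene lists were chosen with earlier results of these data known, as were the motifs. The loci counts at 2 and 4 times were chosen after the values were seen. The genes named were all members, with the tallest promoter peak and tallest other peak of each library, single-library peaks of at least 15 tags, and shared regions past 2-fold. From each related list up to 3 genes past 2-fold whose interval left out 0 were named. The 3 genes nearest to the member with the largest change were named too. The ITGB1 peak at -25.3 kb met none of these rules. Alternatives were stricter q-values, equal peak numbers, other windows, overlaps, floors and summaries, and centring. One marker gene is not reported here.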

Additional observations from a re-analysis of the deposited data

How the results depend on the processing

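Across 14 settings 149 alternative values were computed. Of these 128 stayed inside the interval of the reported value, or within a set margin for counts, and 21 moved outside. Many of these intervals were wide, so the 128 include values that changed sign. They also include values read from the same peaks as the reported ones. ITGA2 was higher in MAK683 in the 11 settings that bear on it, with log2 ratios of 0.96 to 2.08. It was at least doubled in 10 of them, not at a −log10 q of at least 10. Several settings, such as the 1 kb window and equal peak numbers, read the same peaks and returned 1.69 unchanged, so they add no separate support. At a −log10 q of at least 5 or 10 the DMSO peak was dropped, and the ratio was read against the floor of that setting. The median of all shared regions was -0.33. Centring on it turned 4 values positive: the members' promoter median became 0.19, ITGA7 0.08, ITGB1 0.19 and the shared-region median 0.19, so their direction rests on the scaling. At a −log10 q of at least 5, promoter peaks were found for 5 members in DMSO and 7 in MAK683, and at 10 for 4 in DMSO and 5 in MAK683. The loci then held 40 peaks in DMSO and 44 in MAK683 at 5, and 23 and 22 at 10. The gain at ITGA1 and ITGA2, whose alternatives were chosen after seeing the data, was 4 to 13 peaks at 5 and 3 to 5 at 10, and MAK683 had 24 there with equal numbers of peaks in both libraries. The shared percent of MAK683 peaks was 70.5 at 5, 77.3 at 10 and 64.7 with equal numbers. With at least 50% of each peak overlapped it was 47.5 in DMSO and 30.5 in MAK683, and with summits at most 150 bp apart 44.3 and 28.4. The ITGA2 promoter peaks met neither of these rules. The place of the ITGA2 promoter as the 1 doubled shared region therefore rests on the 1 bp overlap rule. Summed heights gave ITGA11 a log2 ratio of 2.49. For 8 values of ITGA7, ITGA10, ITGA11 and ITGB4 no peak was left, and for 2 of ITGA10 and ITGA11 a peak in both libraries was required, so they were not run. The members' peaks had a median of 12 tags in DMSO and 10 in MAK683, near the calling limit of 6, where depth sets whether a peak is called. No paired analysis was possible because each group had 1 library, and no library could be left out.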
